A study of Mus musculus with 2 samples.

Results

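Dividing radial glia of the embryonic mouse cortex were selected on their UMI counts, as the cells that met 10 gates at the same time. A UMI (unique molecular identifier) marks one captured RNA molecule, so each count is a number of molecules. A cell needed at least 2 UMIs of Slc1a3 and at least 1 UMI of Sox9, both genes of radial glia, and at least 3 UMIs of Mki67 and Top2a together, both genes of cycling cells. It could hold no more than 2 UMIs of Eomes, of Neurog2, of Rspo2, of Col3a1, of Neurod2 and Neurod6 together and of Dlx1 and Dlx2 together, and no more than 1 UMI of Lmx1a, which kept out intermediate progenitors, neurons, GABAergic cells, cells of the cortical hem and meningeal cells. A cell entered only with 1000 or more genes detected and no more than 10% of its UMIs from mitochondrial genes. Of the 3182 cells left, 284 met all gates, 122 of 1211 in replicate 2 and 162 of 1971 in replicate 4. Their share of all cells was 10.1% (exact Clopper-Pearson 95% interval 8.44 to 11.9%) in replicate 2 and 8.22% (7.04 to 9.52%) in replicate 4. These intervals cover counting error only.

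The 2 libraries came from the dorsal telencephalon of wild-type embryos of the EomesDot line at embryonic day 14.5, dissociated with papain and prepared with 10x Genomics chemistry that captures the polyadenylated end of each transcript. The labels give brain hemispheres as the tissue, and the methods of the study describe C57BL/6J embryos without saying how this line relates to them. There is no other genotype, treatment or age, so the comparisons run between classes of cells within these libraries, and the labels do not say how many embryos went into each. All p-values therefore measure the spread between 2 libraries, which may be technical. The study used these cells to predict which ligands of migrating somatostatin-positive interneurons meet receptors on radial glia and intermediate progenitors.

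Radial glia are the stem cells of the developing cortex. Their cell bodies line the ventricle, where they divide, and each carries a long fibre towards the pial surface that guides newborn neurons. Their nuclei move away from the ventricle for DNA synthesis and return to it for mitosis, and a division can give 2 radial glia or a radial glial cell together with a neuron or an intermediate progenitor, the Eomes-expressing cell that divides away from the ventricle.

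The class carried the genes of its name beyond those used to gate it. Values are given as CPM, the UMIs of a gene scaled to 1e+06 UMIs summed over the cells of a class in a library. Pax6, a transcription factor of dorsal radial glia, stood at 224 and 219 CPM in replicates 2 and 4. After each cell was thinned to 10000 UMIs, 89.4% and 82.9% of the dividing radial glia kept a Pax6 UMI, against 9.06% and 6.18% of neurons, the cells with at least 10 UMIs of Neurod2 and Neurod6. Without thinning the shares were 96.7% and 96.9% against 14.97% and 10.5%, at median depths of 36000.5 and 30797 UMIs in the dividing radial glia and 34088.5 and 25298 UMIs in the neurons. The summed list of 7 pallial genes reached 955 and 928 CPM in the dividing radial glia, while 7 genes of subpallial progenitors summed to 8.43 and 27.0 CPM, and Nkx2-1, which marks the medial ganglionic eminence, was at 0 UMIs in replicate 2 and 0.400 CPM in replicate 4. The gate genes themselves had medians of 10.0 and 8.0 UMIs per cell for Slc1a3 and 8.0 and 7.0 UMIs for Sox9, values on which the cells were chosen.

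A few cells of replicate 4 held RNA of another lineage. Scrublet, a doublet caller, marked 4 of the 162 dividing radial glia of replicate 4 and 0 of the 122 of replicate 2. The same 4 cells were those that held such RNA above the limits set after seeing the data. In 1 of them 24771 of 55911 UMIs were haemoglobin and other erythroid transcripts, 1 held 99 UMIs of Olig1, Olig2 and Pdgfra, and 2 held 57 and 17 UMIs of GABAergic genes. The summed erythroid list was therefore 69.2 CPM in replicate 2 and 5150 CPM in replicate 4, and 196 CPM in replicate 4 without these cells. Lists for the other cell types that the gates could have let through stayed low, at 7.32 and 6.40 CPM for 7 endothelial and mural genes, 5.99 and 5.80 CPM for 7 microglial genes, 15.1 and 7.40 CPM for 6 meningeal genes, and 24.0 and 15.4 CPM for 7 genes of choroid plexus and hem. The 6 GABAergic genes summed to 1.33 and 18.8 CPM, and to 3.94 CPM in replicate 4 without the 4 cells. The 8 genes of postmitotic neurons summed to 555 and 572 CPM, most of it Map2 (420 and 385 CPM), against 6053 and 5838 CPM in the neurons, and the 9 genes that respond to dissociation to 391 and 393 CPM, against 377 and 428 CPM in the radial glia with low Mki67 and Top2a described below. The part of these other RNAs in the results was not tested, except that leaving out the doublets changed no count of called genes by more than 1.5 times. 3 cell barcodes occurred in both libraries, 1 of them a dividing radial glial cell.

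Cell cycle genes fall into waves that share letters in their promoters. Genes of the G1/S wave often carry sites for E2F factors, and genes of the G2/M wave carry the cell cycle homology region, written TTTGAA or TTTAAA, near a CCAAT box. Both waves were present among the dividing radial glia, so the promoters of 3 genes of each are shown here from RefSeq, on the GRCm38.p6 build of the mouse genome that mm10 stands for, from 250 bases before to 50 bases after the start site, 5′ to 3′ along the gene. Capitals mark TTTGAA or TTTAAA, the CCAAT box and the 8-letter E2F forms TTTCCCGC, TTTCGCGC, TTTGCCGC and TTTGGCGC, each searched on both strands, so that CCAAT on the opposite strand appears as ATTGG. The form TTTAAA reads the same on both strands, and where a pair of E2F forms overlaps on opposite strands the capitals form a longer run. The G2/M genes are Ccnb1, which encodes cyclin B1 (chr13:100786437-100786736, minus strand), Plk1, a mitotic kinase (chr7:122159185-122159484, plus strand), and Cdc20, an activator of the anaphase-promoting complex (chr4:118437294-118437593, minus strand). The S phase genes are Mcm5 and Mcm6, subunits of the replicative helicase (chr8:75109259-75109558, plus strand, and chr1:128359656-128359955, minus strand), and Pcna, the sliding clamp of DNA polymerase (chr2:132253131-132253430, minus strand).
Ccnb1: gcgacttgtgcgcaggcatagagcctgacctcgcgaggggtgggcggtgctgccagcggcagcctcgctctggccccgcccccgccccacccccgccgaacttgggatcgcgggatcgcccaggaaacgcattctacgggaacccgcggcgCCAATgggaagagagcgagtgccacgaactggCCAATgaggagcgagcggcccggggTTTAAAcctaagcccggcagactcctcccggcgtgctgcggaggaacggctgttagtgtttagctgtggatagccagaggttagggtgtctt
Plk1: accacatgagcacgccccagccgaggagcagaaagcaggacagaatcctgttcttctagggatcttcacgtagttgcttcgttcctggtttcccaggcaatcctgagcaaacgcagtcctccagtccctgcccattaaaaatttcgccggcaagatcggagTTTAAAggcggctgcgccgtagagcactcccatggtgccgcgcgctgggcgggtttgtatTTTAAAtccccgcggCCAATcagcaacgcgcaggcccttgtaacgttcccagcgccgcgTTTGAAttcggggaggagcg
Cdc20: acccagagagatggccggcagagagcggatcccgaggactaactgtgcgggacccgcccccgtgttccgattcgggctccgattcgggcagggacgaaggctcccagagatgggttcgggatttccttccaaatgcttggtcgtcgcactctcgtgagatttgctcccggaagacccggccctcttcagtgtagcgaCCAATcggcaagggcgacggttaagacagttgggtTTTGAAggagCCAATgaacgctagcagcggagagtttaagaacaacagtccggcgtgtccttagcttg
Mcm5: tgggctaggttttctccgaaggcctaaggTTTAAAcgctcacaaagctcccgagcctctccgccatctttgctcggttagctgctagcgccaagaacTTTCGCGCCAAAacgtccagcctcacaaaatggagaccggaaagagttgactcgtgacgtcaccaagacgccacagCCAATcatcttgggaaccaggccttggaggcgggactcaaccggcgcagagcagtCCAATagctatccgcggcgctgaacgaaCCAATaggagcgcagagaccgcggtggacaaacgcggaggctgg
Mcm6: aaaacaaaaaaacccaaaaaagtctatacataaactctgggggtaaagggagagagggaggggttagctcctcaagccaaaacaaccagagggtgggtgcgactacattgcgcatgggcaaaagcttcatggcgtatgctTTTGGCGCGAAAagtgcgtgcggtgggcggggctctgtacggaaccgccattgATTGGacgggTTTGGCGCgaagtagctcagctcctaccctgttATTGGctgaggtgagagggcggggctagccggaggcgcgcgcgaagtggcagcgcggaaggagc
Pcna: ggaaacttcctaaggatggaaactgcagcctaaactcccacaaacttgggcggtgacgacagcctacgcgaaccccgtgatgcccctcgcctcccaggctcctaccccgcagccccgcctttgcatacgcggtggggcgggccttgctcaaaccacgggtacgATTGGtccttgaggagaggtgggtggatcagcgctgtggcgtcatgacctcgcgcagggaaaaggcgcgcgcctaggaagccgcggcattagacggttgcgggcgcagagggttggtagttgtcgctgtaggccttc

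The Ccnb1 window held TTTAAA starting 42 bases before the start site with CCAAT boxes at 99 and 67 bases before it. In the Cdc20 window TTTGAA lay between CCAAT boxes, and the Plk1 window held TTTAAA at 89 and 29 bases before the start site, CCAAT at 14 bases before it and TTTGAA at 30 bases after it. Mcm5 and Mcm6 each held overlapping E2F letters on opposite strands, and none of the 4 E2F forms lay in the Pcna window. Over the list of 55 G2/M genes, 48 had a window in the table, and 39 of them (81.3%) held TTTGAA or TTTAAA, against 30.6% of 27025 genes. A CCAAT box together with either of these stood in 31 of the 48 (64.6%), against 12.2% of all genes, 7 of the 28 S phase genes and 6 of the 23 radial glia identity genes given next. Of the 37 S phase genes 28 had a window, and 12 of these (42.9%) held an E2F form, against 2.61% of all genes and 3 of the 48 G2/M genes. Among 26 genes of radial glia identity, 23 had a window, 7 of which (30.4%) held TTTGAA or TTTAAA and 1 of which (4.35%) held an E2F form. These matches describe letters, not bound sites.

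Most radial glia were in the dividing class. Among the cells that met every radial glia gate, 122 of 150 in replicate 2 (81.3%, exact 95% interval 74.2 to 87.2%) and 162 of 224 in replicate 4 (72.3%, 66.0 to 78.1%) held at least 3 UMIs of Mki67 and Top2a, a mean of 76.8% ± 6.37 (SD, n = 2). This share depended on depth and on the gate. With each cell thinned to 10000 UMIs and gated again it was 59.8% and 62.2%, and with a gate of 5 UMIs 72.7% and 62.9%. The summed count of both genes had a median of 22.5 UMIs per cell in replicate 2 and 29.5 in replicate 4, and ran up to 179 and 144 UMIs. At exactly 3 UMIs, just inside the gate, there were 8 and 10 cells, and at 2 UMIs, just outside, 9 and 16. The cells outside the gate (90 in all, 28 and 62) are called Mki67/Top2a-low radial glia below, and their median depth was lower, 28003 and 23222 UMIs.

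The dividing class held cells rich in S phase genes and cells rich in G2/M genes. For each cell the share of UMIs from the 37 S phase genes was set against that from the 55 G2/M genes, and a cell was called late-like where the G2/M share was the larger and S-like otherwise. Late-like cells made up 87 of 122 (71.3%, exact 95% interval 62.4 to 79.1%) in replicate 2 and 118 of 162 (72.8%, 65.3 to 79.5%) in replicate 4. The ratio of the shares lay between 0.8 and 1.2 in 14 and 16 cells, so that these cells could fall on either side, and with z-scored lists in place of raw shares the late-like part was 46.7% and 45.7%. The label compares the lists and does not mean a high G2/M level. A dividing cell with 2631 G2/M and 723 S phase UMIs per 1e+06 was late-like. By the same rule 22 of 24 (91.7%) and 34 of 48 (70.8%) Mki67/Top2a-low intermediate progenitors (narrow gate, described below) were late-like. Their median G2/M level was 1555 and 1852 per 1e+06 UMIs. The median dividing radial glial cell held 9010 and 10535 UMIs of G2/M genes per 1e+06 of its UMIs and 3663 and 4761 of S phase genes. In the Mki67/Top2a-low radial glia the medians were 2432 and 2545 for the G2/M list and 3569 and 4101 for the S phase list. The median of the low class thus lay below that of the dividing class on the G2/M list in both libraries, but single low cells reached 9751 in replicate 2 and 13837 in replicate 4, above the dividing medians.

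**Figure D1:**
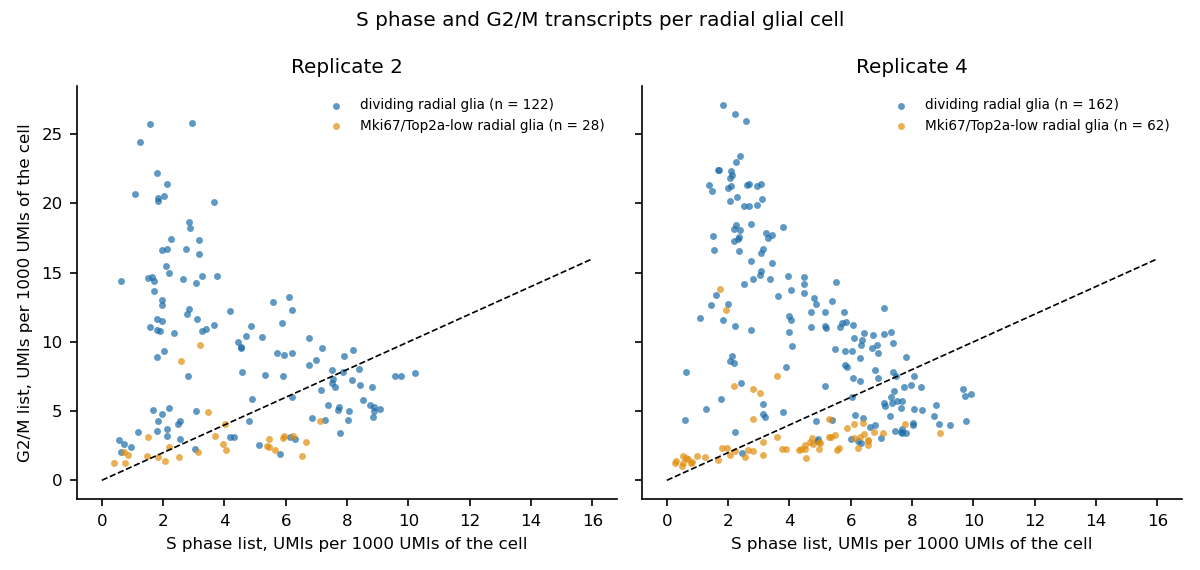
Each point is a radial glial cell, with the S phase list on the horizontal axis and the G2/M list on the vertical axis, both as UMIs per 1000 UMIs of the cell. Blue points are the dividing cells (122 and 162) and orange points the Mki67/Top2a-low cells (28 and 62). Cells above the dashed line of equal shares were called late-like. The dividing cells spread from high S phase and low G2/M values to the reverse, and most low cells lie near the bottom, with a few low cells in both libraries as high on the G2/M list as many dividing cells.

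Summed over its genes, the S phase list was at 7569 and 7399 CPM in S-like and 3449 and 3755 CPM in late-like cells, and several of its genes differed by more than the list as a whole. Ung, a uracil glycosylase that repairs newly replicated DNA, stood at 99.0 and 115 CPM in S-like cells and at 6.32 and 5.79 CPM in late-like cells. Cdc6, which loads the helicase at origins, was at 66.2 and 71.5 CPM in S-like cells and 10.1 and 7.45 CPM in late-like cells. Genes of the helicase itself were less uneven, with Mcm6 at 326 and 314 CPM against 104 and 115 CPM. The reverse held for the mitotic genes. Cenpa, the histone H3 variant of centromeres, was at 231 and 286 CPM in late-like cells and at 8.19 and 8.02 CPM in S-like cells. Ccnb1 was at 151 and 218 CPM in late-like against 9.67 and 8.02 CPM in S-like cells, and Cdc20 at 187 and 195 CPM against 12.7 and 7.29 CPM. Hmgb2, a chromatin protein that replicating cells also make, differed less than these, with 2229 and 2393 CPM in late-like and 1220 and 1008 CPM in S-like cells. The phases were set from these lists, so all of these levels are a description without a test. Dnmt1, the maintenance DNA methyltransferase that the study deleted in interneurons, was not used to set the phases and stood at 110 and 126 CPM in late-like cells and 196 and 176 CPM in S-like cells, and its partner Uhrf1, which is in the S phase list, at 72.4 and 77.8 against 248 and 278 CPM. Dnmt1 was shown by phase after its values were seen, so its levels are a description without a test too.

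**Figure D2:**
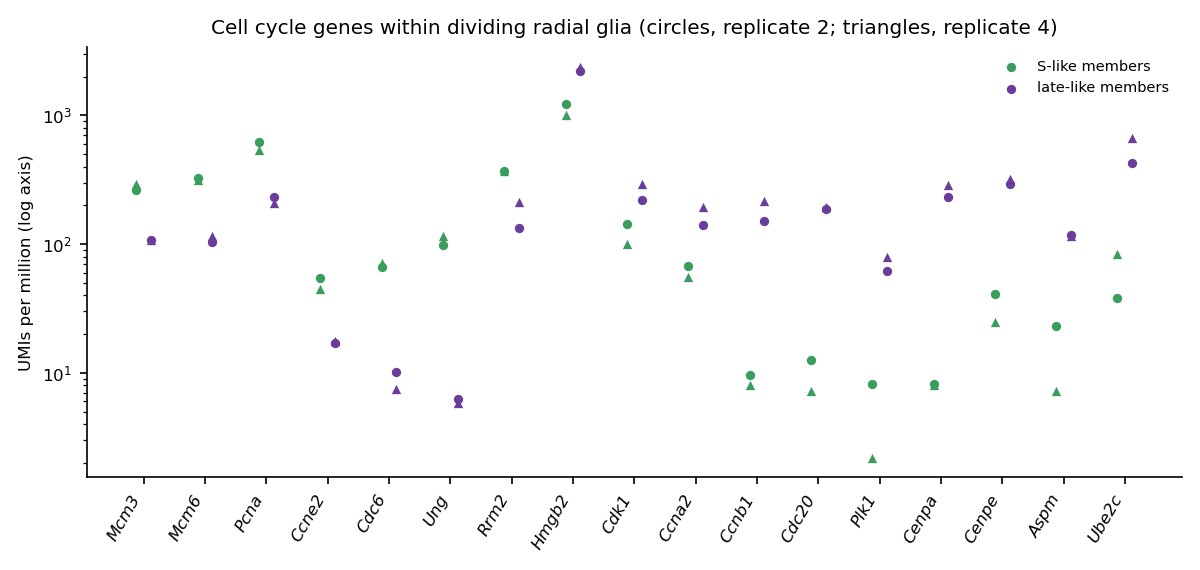
Levels of 17 cell cycle genes in S-like (green) and late-like (purple) dividing radial glia, as CPM on a log axis, with circles for replicate 2 and triangles for replicate 4. The replication genes at the left are higher in S-like cells and the mitotic genes at the right in late-like cells, with Ung and Cenpa among the widest gaps.

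Against the Mki67/Top2a-low radial glia, the dividing cells had a higher level of 169 of 9948 genes tested (1.7%) and a lower level of 7 (0.0704%) at an adjusted p under 0.05 in edgeR's quasi-likelihood test on the UMI counts summed per class and library. Mki67 and Top2a set the split and were left out of the tests. Genes that rise with them in the cycle had to differ too, so the counts and values for the cycle lists describe the split and support nothing. Of the 55 G2/M genes 47 were called higher and 0 lower, with a median log2 fold change of 2.94, where the median of all genes tested lay within 0.01 of 0. Of the 37 S phase genes 2 were called higher, with a median of 0.39, and 8 when the progenitors in the fit had the wider gate described below (median 0.39). The 2 were Rrm1, the large subunit of ribonucleotide reductase (160 and 167 CPM in dividing, 56.5 and 75.7 CPM in low radial glia), and E2f8, a repressor of the E2F family (37.9 and 37.4 against 7.88 and 4.41 CPM). Each of them missed the threshold under 3 of 13 alternatives, a gate of 5 UMIs for dividing cells among them. The most abundant members, Nasp, a histone chaperone, and Pcna, were at 622 and 601 against 605 and 546 CPM and at 346 and 298 against 231 and 242 CPM, and neither passed the test.

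The G2/M genes with the highest levels included Hmgb2, at 1928 and 2013 CPM in dividing against 557 and 568 CPM in low radial glia, a log2 fold change of 1.82, and Cenpf, a kinetochore protein, at 467 and 512 against 60.4 and 37.5 CPM. The libraries of the classes did not overlap for either gene. The widest differences were among genes nearly silent in the low class. Depdc1b had 532 UMIs in the dividing class and 0 in the low class, so it was at least 39.6-fold higher against a floor of 3 UMIs over the group. Aurkb, the kinase of the chromosomal passenger complex, had 863 UMIs against 2, a 96.4-fold difference per UMI sequenced with an exact 95% counting interval of 26.6 to 797. Iqgap3 had 333 against 1 (74.4-fold, 13.3 to 2947), Arhgap19 256 against 1 (57.2-fold, 10.2 to 2267), Espl1, the separase that cuts cohesin, 211 against 1 (47.1-fold, 8.37 to 1870) and Kif18b 335 against 2 (37.4-fold, 10.3 to 310). Plk1 had 494 against 3 (36.8-fold, 12.5 to 179). Hmmr, a spindle protein, was at 105 and 121 against 1.31 and 3.67 CPM, a log2 fold change of 5.31 ± 0.39 (SE, n = 2), and of 6.25 without replicate 4, taken from the CPM of the remaining library with edgeR's default prior count. Esco2, an acetyltransferase that sets sister cohesion, was at 98.1 and 97.9 against 2.63 and 2.94 CPM, and Depdc1a at 52.6 and 77.2 against 2.63 and 1.47 CPM.

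Groups of genes for the machinery of mitosis held unequal numbers of calls. Of 19 condensin and cohesin genes, which fold chromosomes and hold sister chromatids, 8 were called higher. They included Smc4 (455 and 503 against 143 and 162 CPM), Smc2 (347 and 369 against 94.5 and 109 CPM), Ncapg (88.1 and 94.7 against 9.19 and 9.55 CPM) and the guardian of centromeric cohesion Sgo1 (61.5 and 63.2 against 6.57 and 5.14 CPM). The core cohesin gene Rad21 was called higher at 176 and 180 against 73.5 and 82.3 CPM. Its partners Smc1a (309 and 335 against 240 and 211 CPM) and Smc3 (323 and 340 against 264 and 270 CPM) did not pass the test, and the genes were not tested against each other. The dividing class was the deeper one, and among cells of 10000 to 40000 UMIs Smc4 (adjusted p = 0.162), Rad21 (adjusted p = 0.0657), Ncapg, Iqgap3 and Kif18b missed the threshold in edgeR's test, as did Kif14, Nde1, Cdkn2c and Cdkn2d, which follow. The lowest log2 fold change under any of 13 alternatives was 1.36 for Smc4, 0.99 for Rad21, 2.93 for Ncapg and 4.52 for Kif18b. For Iqgap3 it was 2.97, from 6.03 in the main fit, and for Arhgap19, which kept its call, 2.82 from 5.65. Of 15 centrosome and spindle genes mutated in primary microcephaly 4 were called higher, and 8 in the fit with the wider progenitor gate. The 4 were Aspm, of the spindle poles (89.2 and 85.3 against 10.5 and 5.88 CPM), the kinetochore scaffold Knl1 (196 and 225 against 9.19 and 19.1 CPM), the cytokinesis kinesin Kif14 (62.4 and 66.4 against 2.63 and 3.67 CPM) and Nde1, a dynein regulator (109 and 103 against 35.5 and 51.4 CPM), which also missed the threshold when the low class was held to 0 UMIs of Mki67 and Top2a. Nde1 was also the only member called of 15 genes of dynein transport and nuclear migration, among which Pafah1b1, the gene of lissencephaly, was at 292 and 305 against 322 and 292 CPM. None of 9 tested genes of the nuclear lamina and envelope, a structure taken apart at mitosis, was called, where 1.7% of all genes were called higher, and in the fit with the wider progenitor gate 2 of 10 were. Lmnb1 was at 545 and 588 against 322 and 361 CPM. Among 14 tested G1 cyclins and Cdk inhibitors 2 were called higher, both inhibitors of the Ink4 family. Cdkn2c was at 30.2 and 34.0 against 10.5 and 3.67 CPM, a log2 fold change of 2.34 that was 3.19 without replicate 2 and 1.52 without replicate 4. Cdkn2d was at 23.7 and 39.6 against 7.88 and 6.61 CPM, a log2 fold change of 2.16, and missed the threshold with the library as a block (adjusted p = 0.0511). Ccnd2, the most abundant D cyclin, was at 683 and 851 against 791 and 864 CPM.

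Of the 169 genes called higher, 61 were in these lists and 108 were not. Among the latter were families noticed after the values were seen. Of 29 tested replication-dependent histone genes 13 were called higher and 0 lower, and 67 such genes in the tables summed to 2459 and 1872 CPM in dividing against 393 and 328 CPM in low radial glia. Hist1h1b, a linker histone, was at 460 and 462 against 17.1 and 26.4 CPM. The summed histone level was 2138 and 971 CPM in S-like cells and 2595 and 2213 CPM in late-like cells. Histone genes of 1 cluster are near copies, so reads could be split or lost between them, and their mRNAs mostly lack the poly(A) tail that this chemistry captures. Of 33 tested kinesin genes 12 were called higher, among them Kif11, the motor that pushes spindle poles apart (228 and 259 against 10.5 and 7.35 CPM), and of 21 centromere protein genes 10 were. These counts stand beside 1.7% of all genes called higher and 2 of 20 tested Arhgap genes, and as genes of the cycle these families describe the split too.

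The 7 genes called lower in dividing radial glia included Sdk2, Clybl, Igfbpl1, Tshr, Wnt7b and the predicted gene 5330417C22Rik. Igfbpl1, a secreted protein of the insulin-like growth factor binding family, was at 79.0 and 65.6 CPM in dividing and 238 and 162 CPM in low radial glia, a log2 fold change of -1.45 ± 0.21 (SE, n = 2; adjusted p = 0.00790 in edgeR). Its level was higher still in the intermediate progenitors described below, at 347 and 399 CPM in the dividing and 738 and 799 CPM in the Mki67/Top2a-low ones. Sdk2, an adhesion molecule of synapses, was at 18.6 and 13.6 against 49.9 and 56.6 CPM (log2 fold change -1.72 ± 0.24, adjusted p = 0.00532). Tshr was at 15.98 and 16.6 against 39.4 and 46.3 CPM (-1.39 ± 0.21, adjusted p = 0.00961) and Clybl at 13.1 and 17.0 against 43.3 and 44.8 CPM (-1.53 ± 0.26, adjusted p = 0.0165). Wnt7b, a Wnt ligand, was at 5.77 and 5.20 against 14.4 and 22.8 CPM, a log2 fold change of -1.78, and missed the threshold with the library as a block (adjusted p = 0.0779). In all Wnt7b missed it under 6 of 13 alternatives, DESeq2's Wald test and the fit with no other class among them. For Sdk2, Clybl, Igfbpl1, Tshr and Wnt7b the libraries of the classes did not overlap. These genes were called on the same values, so this adds no support. With the UMIs of each cell split at random so that gates and tests used different UMIs, Clybl, Tshr and Wnt7b missed the threshold, as they did among cells of 10000 to 40000 UMIs. With a gate of 5 UMIs for dividing cells Sdk2 (adjusted p = 0.161), Clybl and Wnt7b missed it, and with the low class at 0 UMIs of Mki67 and Top2a Tshr did. All of them stayed lower in dividing radial glia under each alternative, and Igfbpl1 passed it under all 13 alternatives (adjusted p up to 0.0134).

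**Figure D3:**
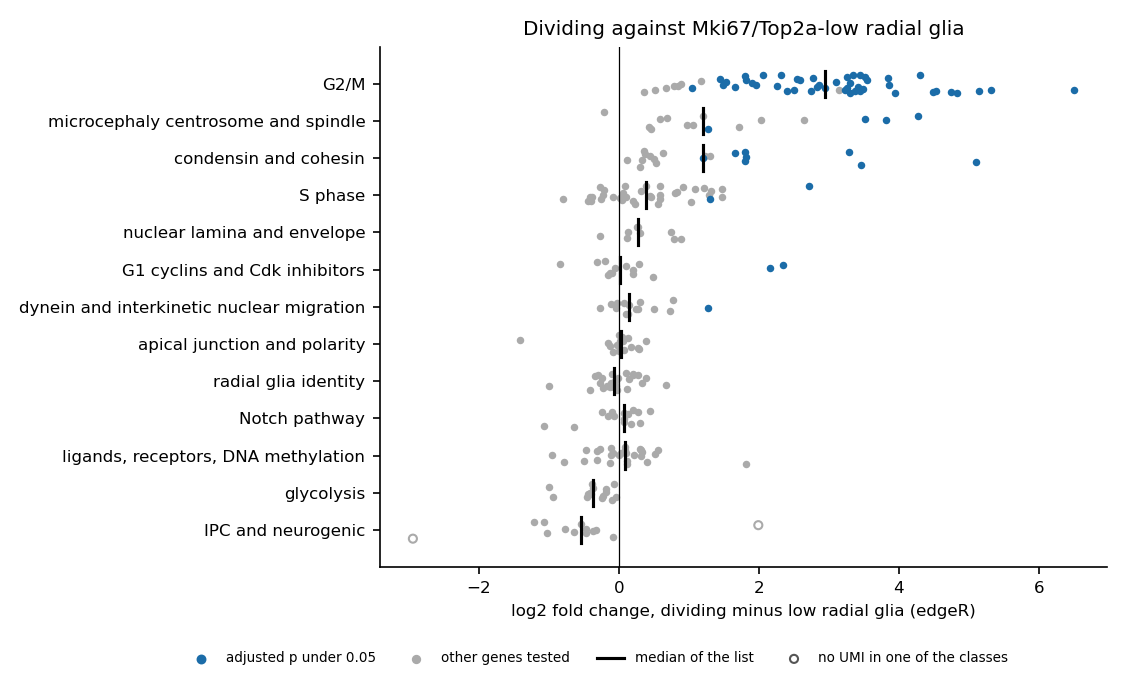
Log2 fold changes of dividing minus Mki67/Top2a-low radial glia for the tested genes of 13 lists. Each point is a gene, blue where the adjusted p was under 0.05, hollow where a class held no UMI of it and the fitted value depends on the prior count, and the bar is the list's median. The G2/M list has its median at 2.94 and the radial glia identity list at -0.06.

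Genes of radial glia identity were also compared between the dividing and the low cells. Both classes had met the same radial glia gates, so similar levels of these genes may follow from the choice of cells. Their counts and values describe it and support nothing. Of 26 genes of radial glia identity 0 were called, near the background of 1.7% higher and 0.0704% lower, with a median log2 fold change of -0.06. Fabp7, a fatty acid binding protein, was at 2465 and 2046 CPM in dividing and 2633 and 1975 CPM in low radial glia. Vim, an intermediate filament, was at 1470 and 1386 against 1883 and 1599 CPM, Gli3, a transcription factor of Hedgehog signalling, at 1133 and 1179 against 935 and 1103 CPM, and Dbi at 1808 and 1482 against 1922 and 1524 CPM. Hopx, known from outer radial glia, had the largest difference of the list, at 26.6 and 37.0 against 44.6 and 80.8 CPM. Likewise 0 of 16 tested genes of apical junctions and polarity were called, with the adherens junction genes Cdh2 at 1273 and 1300 against 1493 and 1343 CPM and Ctnnb1 at 369 and 352 against 347 and 361 CPM. None of 15 Notch pathway genes was called, with the receptors Notch2 at 309 and 302 against 244 and 266 CPM and Notch1 at 180 and 180 against 165 and 166 CPM, and the target Hes1 at 119 and 91.9 against 144 and 85.9 CPM. A miss of the threshold between 2 libraries does not show equal levels. Glycolysis genes were not called either (0 of 15), though all 15 had a negative log2 fold change, with a median of -0.37. In the fit with the wider progenitor gate 1 of 16 was called lower, Aldoa, and 1 had a positive log2 fold change. Gapdh was at 1592 and 1702 against 1766 and 1809 CPM and Aldoa at 98.5 and 95.7 against 227 and 168 CPM. The symbol Aldoa occurs more than once in the tables and its first entry is given. Within the dividing class the summed glycolysis list was 4205 and 4458 CPM in late-like and 5348 and 5432 CPM in S-like cells, and 5606 and 5314 CPM in the low class.

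Dividing radial glia were next set against dividing intermediate progenitors, which held at least 3 UMIs of Eomes and of Mki67 and Top2a together and met the same limits on neuronal, GABAergic, hem and meningeal genes. Only 21 cells did so, 12 and 9, since most Eomes-positive cells already held Neurod2 or Neurod6. After this was seen the limit on Neurod2 and Neurod6 was lifted for the progenitors, which gave 106 cells, 44 and 62, and results are given for both gates. The dividing radial glia were also required to hold Slc1a3 and Sox9, and the progenitors were not. These genes, Eomes and Neurog2 set the classes apart, so radial glial and neurogenic genes that go with them differ by the choice of cells, and their counts and values below describe it and support nothing. With 21 cells, 30 of 9948 genes (0.302%) were higher and 73 (0.734%) lower in dividing radial glia. With the wider gate, 1244 of 12680 genes (9.81%) were higher and 1331 (10.5%) lower. In the wider dividing class the 8 genes of postmitotic neurons summed to 1848 and 2147 CPM, and in the narrow one to 531 and 1005 CPM. In dividing radial glia they summed to 555 and 572 CPM, and 7 of the 8 were called lower there with the wider gate. The part of this neuronal RNA in the counts was not tested.

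Of 26 genes of radial glia identity 2 were called higher in the dividing radial glia with the narrow gate and 23 with the wider one, with median log2 fold changes of 0.61 and 1.91. The 2 were Ttyh1, a chloride channel, and Aldoc, an aldolase of glial cells. Ttyh1 was at 269 and 238 CPM in dividing radial glia, 96.2 and 72.8 CPM in the narrow and 34.8 and 30.0 CPM in the wider class of dividing progenitors (log2 fold change 1.57, adjusted p = 0.0129). Aldoc was at 350 and 344 against 163 and 135 CPM, and 52.2 and 54.3 CPM with the wider gate (log2 fold change 1.21, adjusted p = 0.025). Neither passed the test when only late-like cells of both classes were compared. That left 6 and 3 dividing progenitors, and 12 genes were called in all, 8 of them among those called above, so a miss there says little about a gene. Ttyh1 also missed the threshold when no other class entered the fit, and Aldoc under 4 of 14 alternatives in all. Fabp7 was at 1353 and 884 CPM in the narrow and 532 and 339 CPM in the wider class, where its log2 fold change was 2.34 ± 0.21. With the wider gate 2 identity genes were lower in the dividing radial glia, both also known from neurons, namely Emx1 (69.2 and 70.8 against 122 and 172 CPM) and Lhx2 (475 and 459 against 550 and 584 CPM).

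Of 13 tested genes of intermediate progenitors and neurogenesis, 9 were called lower in dividing radial glia and 0 higher, with a median log2 fold change of -3.81, and 16 of 17 with the wider gate, beside 0.734% and 10.5% of all genes. Gadd45g, a stress and differentiation gene, was at 5.10 and 6.0 CPM in dividing radial glia and 385 and 371 CPM in dividing progenitors (log2 fold change -6.07 ± 0.34, adjusted p = 0.000293). Insm1, a zinc finger factor of progenitors, was at 13.5 and 16.8 against 306 and 184 CPM (-4.01), Hes6 at 19.97 and 26.8 against 213 and 277 CPM (-3.38), and the antiproliferative gene Btg2 at 25.1 and 24.2 against 157 and 139 CPM (-2.59). Elavl4, a neuronal RNA-binding protein, was at 62.4 and 57.8 against 344 and 405 CPM and Rnd2, a small GTPase of migrating neurons, at 5.55 and 7.40 against 49.6 and 45.1 CPM. Neurog1 had 0 UMIs in the 284 dividing radial glia and 22 in the 21 progenitors, at least 110-fold lower against a floor of 3 UMIs over the group. In each of these genes the libraries of the classes did not overlap.

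The Notch ligand Dll1 lay with the progenitors, at 1.55 and 2.0 CPM in dividing radial glia against 64.2 and 34.7 CPM (log2 fold change -4.76, and -4.07 and -5.31 without replicate 2 and replicate 4; adjusted p = 0.00250). Mfng, which modifies Notch receptors, was called lower as well, at 2.66 and 3.60 against 26.2 and 65.8 CPM (-3.81). With the wider gate 8 of 16 Notch pathway genes were higher in dividing radial glia, among them the receptors Notch1 (log2 fold change 1.2), Notch2 (2.0) and Notch3 (1.96) and the targets Hes1 (3.48) and Hes5 (2.47), and 5 were lower, where 9.81% of all genes were higher and 10.5% lower.

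Beyond the lists, the genes lower in dividing radial glia with the largest folds included genes known from neurons. Rbfox3, a splicing factor of neurons, was at 0.666 and 1.60 against 178 and 180 CPM (log2 fold change -7.19, and -7.92 without replicate 4). Srrm4, another neuronal splicing factor, was at 8.88 and 13.6 against 289 and 260 CPM (-4.60), and Myt1, a zinc finger factor of neuronal differentiation, at 1.11 and 3.0 against 93.3 and 76.2 CPM (-5.30, and -4.63 and -6.31 without replicate 2 and replicate 4). The antisense transcript Srrm4os had 1 UMI in the dividing radial glia and 13 in the progenitors, a 196-fold difference with an exact counting interval of 29.4 to 8315, and reads of overlapping transcripts may not be told apart. Rgs16 was at 0.666 and 0.600 against 35 and 20.8 CPM (-5.33). St18 (0.444 and 0.600 against 78.7 and 10.4 CPM) and Ntng2 (0.888 and 0.400 against 35 and 6.93 CPM) differed most in replicate 2, without which their log2 fold changes went from -6.29 to -3.96 and from -4.96 to -3.89, and that of St18 was -7.26 without replicate 4. With only the 6 and 3 late-like progenitors both had the other sign, at 3.19 and 3.44, without passing the test (adjusted p = 0.850 and 0.837), so no direction can be read from these cells. St18 also missed the threshold when no other class entered the fit, and Ntng2 missed it under 4 further alternatives. With these few progenitors Rbfox3, Srrm4, Srrm4os, Rgs16, Neurog1, Elavl4, Rnd2 and Mfng kept their sign but missed the threshold.

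The genes named next were among those called higher in dividing radial glia with the largest folds, and Ephb1, also among them, is given below. Tgfb2, a growth factor, had 767 UMIs against 1 in the 21 progenitors (51.0-fold, exact counting interval 9.12 to 2015) and stood at 89.9 and 72.4 CPM. Nog, an antagonist of bone morphogenetic proteins, had 230 against 0, at least 5.09-fold higher, and missed the threshold with the library as a block (adjusted p = 0.0567). Pawr had 657 against 1 (43.7-fold, 7.81 to 1727), Tagln2 804 against 3 (17.8-fold, 6.07 to 86.5) and Adamts9, a matrix protease, 531 against 2 (17.6-fold, 4.86 to 146). The single progenitor UMI of Tgfb2 and of Pawr was in replicate 4. Without replicate 2 their log2 fold changes went from 5.61 to 4.36 and from 5.39 to 4.21. Without replicate 4, where no progenitor UMI remained, they were 10.3 and 10.0. Csgalnact1, an enzyme of chondroitin sulphate synthesis, had 265 against 1 (17.6-fold, 3.13 to 698) and also missed the threshold with the block (adjusted p = 0.0537). Prkg1, a cGMP-dependent kinase, was at 166 and 125 against 32.1 and 20.8 CPM (log2 fold change 2.44), B3gat2, a glucuronyltransferase, at 65.5 and 70.6 against 8.75 and 17.3 CPM (2.41), and the adaptor Shc3 at 156 and 189 against 32.1 and 62.4 CPM (1.89). With the 6 and 3 late-like progenitors none of these 9 genes passed the threshold. Pawr kept its call under the other 13 alternatives. Among cells of 10000 to 40000 UMIs Tgfb2, Nog, Adamts9, Csgalnact1, B3gat2 and Shc3 missed the threshold. With gates and tests on different UMIs of each cell Nog, Adamts9, Csgalnact1 and Prkg1 missed it. Tagln2, Adamts9, Nog, Csgalnact1, Prkg1, B3gat2 and Shc3 missed it when no other class entered the fit. Csgalnact1 missed the threshold under 7 of 14 alternatives in all, Nog and Adamts9 each under 5 and Prkg1 under 4.

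**Figure D4:**
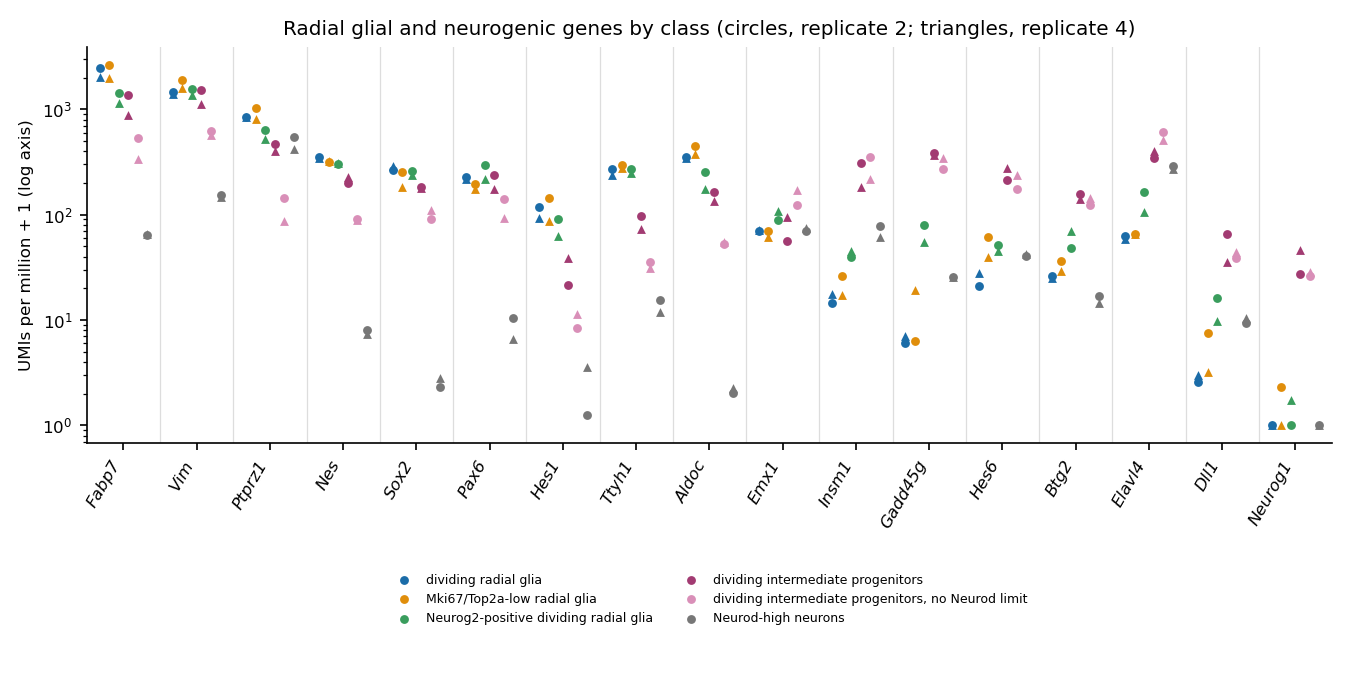
Levels of 10 radial glial and 7 neurogenic genes in 6 classes of cells, as CPM plus 1 on a log axis, with circles for replicate 2 and triangles for replicate 4. Of the radial glial genes all but Emx1 are lower in the dividing progenitors with no Neurod limit than in dividing radial glia, and the neurogenic genes at the right are higher in both classes of progenitors.

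Genes of the cell cycle were next compared between the dividing classes. With the narrow gate 0 of 55 G2/M genes and 0 of 37 S phase genes were called between dividing radial glia and dividing progenitors, with median log2 fold changes of 0.20 and -0.25. With the wider gate 12 G2/M genes were lower and 0 higher in dividing radial glia, and the median took the other sign, -0.33, where 10.5% of all genes were lower and 9.81% higher. Among these were Cenpe, a kinetochore motor (217 and 241 against 403 and 386 CPM), Tpx2, a spindle assembly factor (211 and 240 against 368 and 367 CPM), and Ccnb2 (85.9 and 91.7 against 179 and 141 CPM). With it 6 of the 37 S phase genes were higher, and the median of the list was 0.19. Ccnd1 was called lower in dividing radial glia with the narrow gate (57.5 and 78.0 against 146 and 156 CPM, log2 fold change -1.15, adjusted p = 0.0469) and stood at 71.6 and 62.0 CPM in the wider class. It missed the threshold under 8 of 14 alternatives, the block among them (adjusted p = 0.0537), and its log2 fold change ran from -1.79 to 1.79, the latter with the 6 and 3 late-like progenitors, where the test was not passed either.

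**Figure D5:**
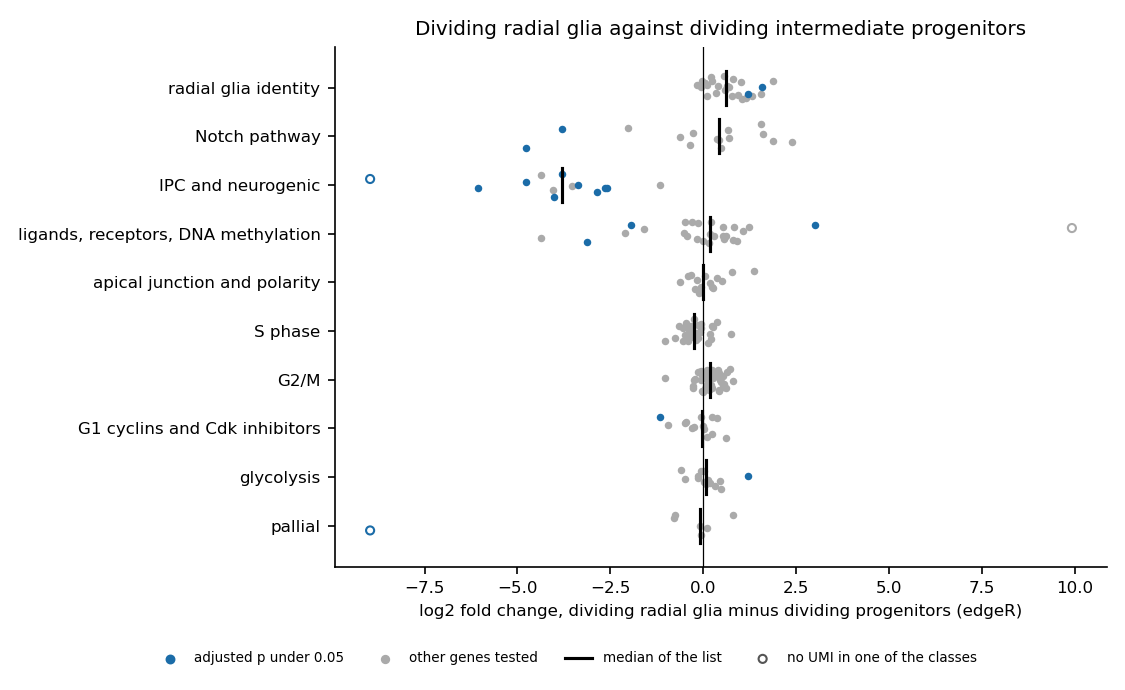
Log2 fold changes of dividing radial glia minus dividing intermediate progenitors (narrow gate) for the tested genes of 10 lists. Each point is a gene, blue where the adjusted p was under 0.05, hollow where a class held no UMI of it and the fitted value depends on the prior count, and the bar is the list's median. The neurogenic list has its median at -3.81 and the G2/M list at 0.20.

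The difference between dividing and Mki67/Top2a-low cells was also compared between radial glia and intermediate progenitors. No gene was called (0 of 9948, 0%) in edgeR's test of this interaction, where 1049 genes had an unadjusted p under 0.05, and DESeq2's Wald test called 79. With the wider gate 253 of 12680 genes (2%) were called, 230 of them with a lower dividing-minus-low log2 fold change in radial glia than in intermediate progenitors. Of the 37 S phase genes 32 were among these, as were 29 of the 55 G2/M genes. Both changes were split on Mki67 and Top2a, so the counts and levels of the cycle lists describe the splits and support nothing. The S phase list summed to 4678 and 4755 CPM in dividing and 3690 and 4017 CPM in low radial glia, but to 3905 and 4576 CPM in dividing and 944 and 960 CPM in low intermediate progenitors. The G2/M list summed to 10240 and 11850 against 2943 and 3022 CPM in radial glia and to 13581 and 13644 against 1879 and 1883 CPM in intermediate progenitors. The wider low class of intermediate progenitors held 197 and 332 cells, and in it the 8 genes of postmitotic neurons summed to 2885 and 3102 CPM, against 641 and 559 CPM in low radial glia and 6053 and 5838 CPM in the neurons. The part of this neuronal RNA in the interaction was not tested.

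Next to the dividing radial glia stood 69 cells, 32 and 37, that failed only the Neurog2 gate. In replicate 2 no other gate kept out as many cells on its own, and in replicate 4 the gates on Mki67 with Top2a (62 cells) and on Slc1a3 (43 cells) kept out more. Neurog2 was at 200 and 193 CPM in them against 10.9 and 12.8 CPM in the dividing radial glia, which is how they were set apart, and their Eomes level was 3.19 and 5.86 CPM against 0.666 and 1.2 CPM. The following levels are a description. Neurogenic genes lay between those of dividing radial glia and progenitors, with Gadd45g at 78.1 and 53.4 CPM, Dll1 at 15.2 and 8.78 CPM and Hes6 at 50.2 and 44.7 CPM. Fabp7 was at 1419 and 1143 CPM, below the dividing radial glia, while Pax6 was at 295 and 217 CPM and Ttyh1 at 271 and 247 CPM. Their G2/M list summed to 12253 and 14504 CPM, near the 12262 and 14519 CPM of the late-like dividing radial glia, and their S phase list to 2879 and 2897 CPM.

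The ligands and receptors through which the study linked interneurons to progenitors were also measured in the dividing radial glia. Of 27 tested genes of this list and of DNA methylation, 0 were called between dividing and low radial glia, where 1.7% of all genes were called higher and 0.0704% lower. Epha5 was the most abundant, at 1593 and 1438 CPM in dividing and 1522 and 1795 CPM in low radial glia, followed by the neuroligin Nlgn1, a receptor of neurexins, at 1199 and 1103 against 1706 and 1088 CPM. Epha4, an ephrin receptor, was at 634 and 636 CPM in dividing and 584 and 668 CPM in low radial glia and at 525 and 561 CPM in dividing progenitors, and the ephrin gene Efnb2 at 173 and 182, 211 and 182, and 134 and 111 CPM. Neither passed a test in any of these comparisons. Against dividing progenitors Ephb1 was called higher in dividing radial glia, and Epha3 and the reelin receptor gene Lrp8 lower, where 0.302% of all genes were higher and 0.734% lower. With the wider gate 8 of 31 genes were higher and 6 lower, against 9.81% and 10.5% of all genes. Ephb1 was at 151 and 81.4 against 5.83 and 24.3 CPM, a log2 fold change of 3.01 that was 1.74 without replicate 2 and 4.68 without replicate 4, and it missed the threshold under 7 of 14 alternatives, the wider gate (adjusted p = 0.128) among them. Epha3 was at 52.1 and 98.5 against 895 and 423 CPM (-3.13, and -2.10 without replicate 2 and -4.10 without replicate 4), and Lrp8 at 37.9 and 40.4 against 137 and 166 CPM (-1.95). Both missed the threshold with the 6 and 3 late-like progenitors, and Epha3 also when no other class entered the fit. Sstr2, a somatostatin receptor, had 0 and 0.600 CPM in dividing radial glia, 8.75 and 6.93 CPM in the narrow and 97.7 and 108 CPM in the wider class of progenitors. Erbb4 stood at 10.7 CPM in replicate 2 and 126 CPM in replicate 4, and at 13.3 CPM in replicate 4 without the 4 cells that held RNA of another lineage.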

How the data were processed

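Single-cell RNA-seq was measured in 2 wild-type libraries (replicates 2 and 4, named by the labels). The deposited files hold raw UMI counts per gene and cell, made by the authors with Cell Ranger 7.0.0 on mm10 per the submitters' processing notes. The use of intronic reads and of strand in counting is not given in the sources used here. The tables list 32285 genes. The cell filter (1000 or more genes, no more than 10% mitochondrial UMIs) left 39226960 and 47311068 UMIs in all, and 4506391 and 4996999 in the dividing radial glia. Counts were read with scanpy 1.11.5, and Scrublet marked 12 and 48 cells, which were kept.

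UMI counts were summed over 4 classes (dividing and Mki67/Top2a-low radial glia and intermediate progenitors) in each library, and the 8 sums were fitted together with edgeR 4.0.16 (quasi-likelihood test, TMM, filterByExpr, Benjamini-Hochberg adjustment, residual degrees of freedom 4) in R 4.3.3. The 13 gate genes were left out of the tests. Each SE was taken from the log2 fold change and its F statistic, as the absolute change over the root of F. The members and gene lists were chosen with earlier results of these data known. Named genes are the 10 called genes with the largest fold changes in each direction with at least 20 CPM in a class, passing over predicted genes and items not reported here, and, of each list, the members with the highest levels and the largest fold changes. Other named genes, the gene families and the genes shown by phase were chosen after their values were seen. The scripts were tested on simulated counts.

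Both classes of a library come from the same cell suspension, so the library number pairs the sums. Deviations from the class means correlated between classes at 0.0577 to 0.242 over 9948 genes. Alternatives were another normalization (DESeq2 size factors), DESeq2 1.42.0 (Wald test), no filter on low counts, other cell filters and gates, a depth window, thinning, gates and tests on different UMIs of each cell (a random split), the replicate block and leaving out each library. Lifting the Neurod limit for intermediate progenitors was chosen after seeing the data. With 2 libraries per class, no exact permutation test of a single gene could reach the 0.05 threshold and none was run.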

Additional observations from a re-analysis of the deposited data

Results flagged for a closer look

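The dividing-minus-low change differed between radial glia and intermediate progenitors for 253 genes by edgeR's interaction test once the limit on Neurod2 and Neurod6 was lifted for the progenitors, and for 0 genes with the limit in place. In the low class of progenitors the 8 genes of postmitotic neurons summed to 2885 and 3102 CPM with the limit lifted and to 1982 and 1326 CPM with it in place, against 6053 and 5838 CPM in the neurons, and the part of this RNA in the difference was not tested. The wider gate was chosen after seeing the data, and 98 of the 103 genes called between the dividing classes with the narrow gate were also called with it. Outside the cell filter, 6 barcodes met all UMI gates of dividing radial glia, 2 in replicate 2 and 4 in replicate 4, all of them above the limit of 10% mitochondrial UMIs. They were among 501 and 618 barcodes left out by the filter.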

How the results depend on the processing

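The classes were compared in 2 libraries, and the dividing intermediate progenitors rested on 21 cells. The 176 genes called between dividing and Mki67/Top2a-low radial glia became 474 with every gene of at least 1 count, 108 among cells of 10000 to 40000 UMIs, 276 with the wider progenitor gate and 275 when no other class entered the fit. The 103 called against dividing progenitors became 196 by DESeq2's Wald test, 594 with every gene, 187 with gates and tests on different UMIs of each cell (the random split), 2575 with the wider gate, 12 among late-like cells and 39 when no other class entered. The 0 called for the interaction became 79, 401, 2 and 253 under the Wald test, every gene, the random split and the wider gate. With every gene, the median log2 fold change of all genes was 0.08, 0.35 and 0.38 in the 3 comparisons. The share of calls that were higher in dividing radial glia was 96.02% against low radial glia and 81.65% with every gene. Against progenitors it was 29.13%, 62.46% with every gene, 48.13% with the random split, 48.31% with the wider gate and 17.95% when no other class entered. The mean dividing share of radial glia was 61.0% after thinning and 67.8% with a gate of 5 UMIs, and 72.3 to 81.3% over single libraries. The late-like share was 46.2% with z-scored lists and 71.3 to 72.8% over single libraries. With the replicate block, 189, 108 and 0 genes were called (167 and 94 of the first 2 shared with the fit without it), and Wnt7b (log2 fold change -1.74), Cdkn2d, Nog, Csgalnact1 and Ccnd1 (-1.16) missed the threshold. The block changed no other call among the named genes. Among late-like cells, where 6 and 3 dividing progenitors remained, St18 (3.19), Ntng2 (3.44) and Ccnd1 (1.79) had the other sign without passing the test. The cause of these shifts was not tested. Of 927 values for 69 named gene comparisons, 814 kept their direction and side of the threshold, 110 kept only their direction and 3 reversed. With 1 library left out no residual degrees of freedom remain, so counts of called genes could not be given.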
